A study of Mus musculus with 2 samples.

Results

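NF-κB is a family of dimeric transcription factors, and the transcripts of its 5 subunits and of 5 of its inhibitors were measured in monocytic myeloid-derived suppressor cells (M-MDSCs) taken from tumours of mice on a normal-salt diet (NSD) or a high-salt diet (HSD). The members were chosen by name, as all non-control probes whose RefSeq transcript identifier belongs to Nfkb1, Nfkb2, Rel, Rela, Relb, Nfkbia, Nfkbie, Nfkbiz, Tnfaip3 or Bcl3. This rule found 12 probes of all 10 genes, out of 39413 probes and 20653 named genes on the arrays. Female mice of the strain labelled BABL/c received 1000000 4T1 mammary carcinoma cells under the skin and then were kept for 16 days on chow of 0.4% NaCl and plain tap water (NSD) or on chow of 4% NaCl and drinking water of 1% NaCl (HSD). M-MDSCs were purified from the tumours with magnetic beads, cells of the mice of a diet were pooled in equal numbers, and each pool was hybridised to 1 array. The comparison asked which transcripts differed between the pools. With 1 array for each diet there was no spread between mice, no test and no p-value, and every value below describes these 2 arrays.

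In resting cells NF-κB dimers are held in the cytoplasm by inhibitor (IκB) proteins. Signals from Toll-like, interleukin-1 or TNF receptors activate the IκB kinase complex, the inhibitor is degraded, and the dimer enters the nucleus. Among the genes it induces are those of its own inhibitors, above all Nfkbia, which close a negative feedback loop. In myeloid cells the pathway is known for driving cytokine and chemokine genes. The arrays measured transcripts, not the location, phosphorylation or DNA binding of these proteins.

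All signals below are processed signals in intensity units, that is, brightness after background subtraction. Fold changes were computed after each array was scaled to its own 75th percentile, which was 252 units for the NSD and 233 units for the HSD, so that equal signals correspond to a log2 fold change slightly above 0. Each member probe was printed in 1 spot and was well above background on both arrays, so no fold change of a member was a bound. The scanner software gave an error for each spot, close to 10.0% of the signal for bright spots, and the error after ± below is the SE that follows from it for a log2 fold change. A second measure of error came from 289 other probes printed in several spots. The SD of their log2 fold change from spot to spot had a median of 0.063 for signals of 1000 and above, 0.071 for signals of 100 to 1000 and 0.18 for signals below 100. Both measures describe how well an array was read, and neither covers differences from mouse to mouse or from one cell preparation to another.

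Markers of myeloid cells were well above background in both pools, and so were markers of lymphocytes. All 9 measured monocyte and M-MDSC markers and all 9 measured neutrophil markers were well above background on both arrays, among them Itgam (CD11b) and Ly6c1, which had log2 fold changes of 0.090 and 0.018. Of the monocyte and M-MDSC markers, Cd14 (log2 fold change 0.82) and Chil3 (0.65) were at least 1.5-fold higher in the HSD pool, and Fcgr1 (−3.68) and Ccr2 (−0.78) at least 1.5-fold lower. Of 9 measured macrophage markers, 7 were at least 1.5-fold lower in the HSD pool, and the summed scaled signal of the list was 0.566 times that of the NSD pool. All 10 B cell markers were well above background on both arrays, 7 of them were higher in the HSD pool, none by 1.5-fold, and their sum was 1.23 times that of the NSD pool. Of 10 T and NK cell markers, 8 were well above background in the NSD pool and 9 in the HSD pool, Ncr1 in neither. Of the 9 measured on at least 1 array, 5 were higher and 4 lower in the HSD pool, of which Cd3e alone passed 1.5-fold (log2 fold change −1.09). Their sum, in which Cd3d and Lck were the brightest, was 1.24 times that of the NSD pool. In a pool of cells, fewer cells of a type and less RNA per cell cannot be told apart. The summed scaled signal of the neutrophil markers was 1468 in the NSD pool and 1541 in the HSD pool. That of the monocyte and M-MDSC markers was 547 and 634, though levels of different probes are not comparable. Since lymphocytes and neutrophils also transcribe genes described here, these values stand beside all results below. The part of these cells in them was not tested.

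Of the 10 genes, only Nfkbia differed by at least 1.5-fold between the pools, the fold change that the study used to count genes. Among the 16312 genes measured above background, 9.86% passed 1.5-fold towards the HSD pool and 10.3% towards the NSD pool, so 1 gene higher and 0 lower was close to the background share. With cyclic loess in place of the common scaling these shares were 7.63% and 12.2%. All 10 genes had a positive log2 fold change, against 54.2% of all genes. For Rela, Nfkb1, Nfkb2 and Tnfaip3 it was smaller than its software SE. Their unscaled signals (brighter probe of Nfkb1) had HSD to NSD ratios of 1.02, 1.03, 1.01 and 0.99. Normexp, another background correction, was run on the median spot signals instead of the processed signals, with 50 units added. With it 9 genes were positive and Tnfaip3 turned negative. The median log2 fold change of the 10 genes was 0.38, beside 0.045 for all genes. The 5 subunits had a median of 0.16 and the 5 inhibitors one of 0.50.

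**Figure D1:**
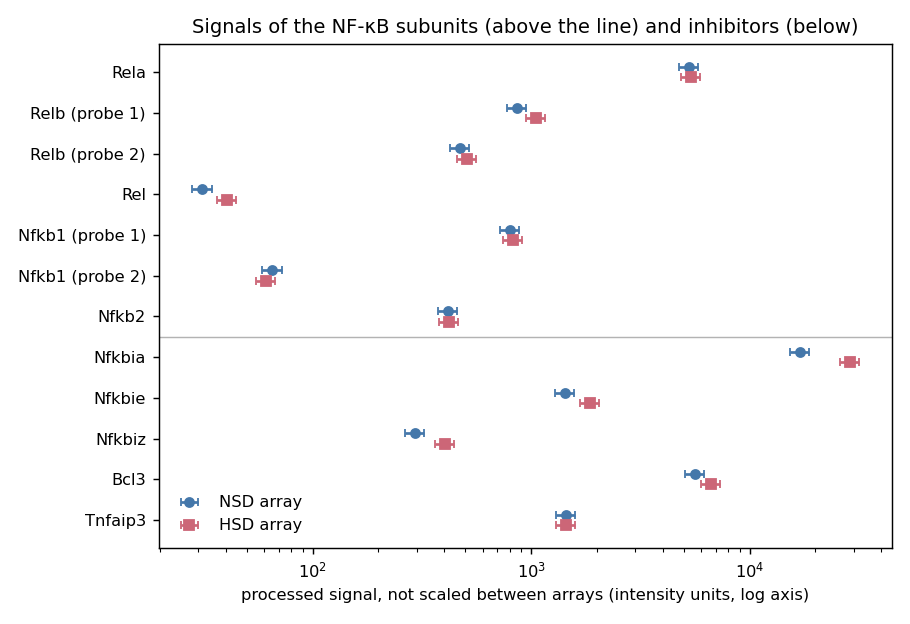
Processed signal of each member probe on the NSD array (circles) and the HSD array (squares), in intensity units on a log axis, with the scanner software's error as bars; probes are numbered by brightness where a gene had several. The bars of Nfkbia (17032 and 28833 units) are clear of each other, as are those of Rel, Nfkbie and Nfkbiz, while those of Rela, Nfkb1, Nfkb2 and Tnfaip3 overlap; levels of different probes are not comparable.

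Among the subunits, Rela, Relb and Rel carry a transactivation domain. Rela encodes p65, the activating partner of the most common dimer. Its signal was 5300 units in the NSD pool and 5410 units in the HSD pool, a log2 fold change of 0.14 ± 0.20. This difference was smaller than the software error. Relb, the subunit of the non-canonical pathway, had 2 probes. The brighter one read 862.6 and 1053 units, a log2 fold change of 0.40 ± 0.20, and the other read 474 and 507 units, a log2 fold change of 0.21 ± 0.20. Both were higher in the HSD pool and both were under 1.5-fold.

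Rel encodes c-Rel, a subunit best known from lymphocytes and from the induction of interleukin-12 in myeloid cells. It gave the dimmest signal among the member probes, 31.3 units in the NSD pool and 40.5 units in the HSD pool, with a log2 fold change of 0.49 ± 0.21. With normexp, run on median spot signals with 50 units added, the log2 fold change of Rel was 0.24. These added units were more than either signal, which by construction shrinks the log2 fold change of so dim a probe. The parts of the added units, of the spot summary and of the background correction were not tested apart.

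Nfkb1 and Nfkb2 encode the precursors p105 and p100, which are processed to the DNA-binding subunits p50 and p52 and which, unprocessed, also act as inhibitors. The brighter Nfkb1 probe read 799.6 units in the NSD pool and 822.6 units in the HSD pool, a log2 fold change of 0.16 ± 0.20. The dimmer one read 65.5 and 61.3 units, a log2 fold change of 0.018 ± 0.21. Nfkb2 read 415.6 and 419.1 units, a log2 fold change of 0.13 ± 0.20. None of these 3 probes was apart from 0 by more than its software error. The 95% intervals from that error reached from 0.84-fold to 1.47-fold for the brighter Nfkb1 probe and from 0.83-fold to 1.44-fold for Nfkb2. That error has a floor of 10.0% of the signal on both arrays. The spot-to-spot SD of other probes with signals of 100 to 1000 was smaller, with a median of 0.071.

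**Figure D2:**
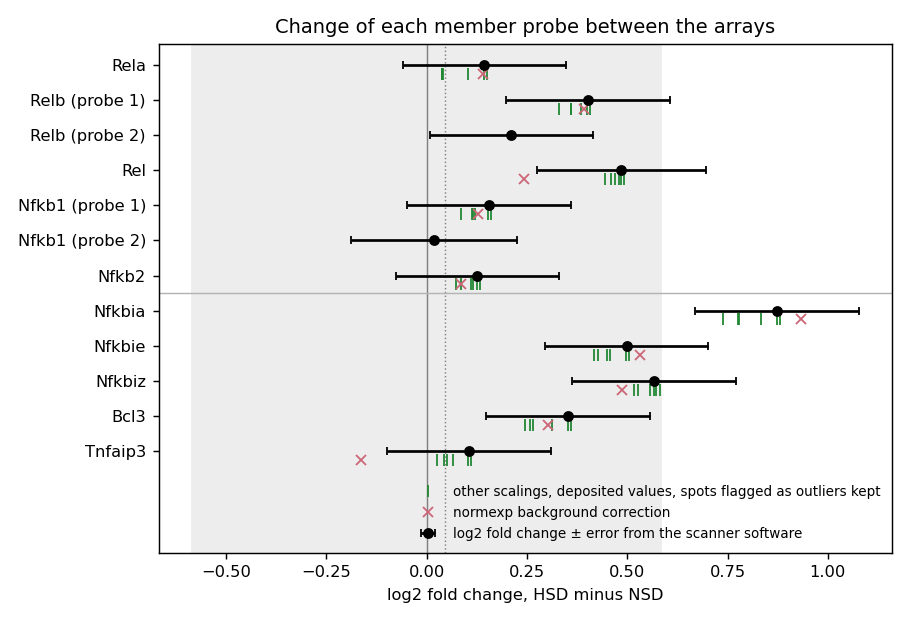
Log2 fold change (HSD minus NSD) of each member probe as a point, with the SE from the scanner software as a bar; ticks below the brightest probe of each gene give other scalings, the deposited values and the result with flagged spots kept, and crosses the normexp correction. The grey band spans less than 1.5-fold and the dotted line is the median of all genes at 0.045; Nfkbia alone lies outside the band, at 0.87, and the cross of Tnfaip3 lies below 0.

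Among the brightest probes of the 10 genes, the largest and the smallest difference were both those of inhibitors. Nfkbia encodes IκBα, the inhibitor that is degraded and resynthesised within a single cycle of NF-κB activation. It read 17032 units in the NSD pool and 28833 units in the HSD pool, a fold change of 1.83 with a 95% interval of 1.39 to 2.42 from the software error, and 96.1% of all genes had a lower log2 fold change. The log2 fold change, 0.87 ± 0.20, lay between 0.74 and 0.93 under the other settings tried and stayed past 1.5-fold in each. Nfkbie encodes IκBε, which is also an induced inhibitor and acts on Rela and Rel. Its signals were 1427 and 1862 units, which gave a log2 fold change of 0.50 ± 0.20, or 1.41-fold. Both classical inhibitors were therefore higher in the HSD pool, by more than 2 SEs of the software error.

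Nfkbiz and Bcl3 encode the atypical inhibitors IκBζ and BCL-3, nuclear proteins that bind p50 or p52 on DNA and can raise as well as lower transcription. Nfkbiz read 294.5 units in the NSD pool and 402.9 units in the HSD pool, a log2 fold change of 0.57 ± 0.20. This fold change of 1.48, with an interval from 1.12 to 1.95, lay just short of 1.5-fold. Bcl3 read 5652 and 6667 units, a log2 fold change of 0.35 ± 0.20. Its interval, from 0.97-fold to 1.68-fold, included no change.

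Tnfaip3 encodes A20, a ubiquitin-editing enzyme that shuts off signalling upstream of the IκB kinase. Its signals were 1451 units in the NSD pool and 1442 units in the HSD pool. The log2 fold change was 0.10 ± 0.20. This difference, the smallest of the 5 inhibitors, was smaller than its SE. With normexp the log2 fold change was −0.16, from median spot signals of 1476.5 and 1216.5 units and local backgrounds of 15 and 14 units. The parts of the spot summary and of the background correction were not tested apart. Like Nfkbia, Tnfaip3 is known as an induced inhibitor.

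Differences between genes of the same arrays do not depend on a common scaling factor. Among the settings compared below, those that only shift a whole array therefore give the same difference by construction. The log2 fold change of Nfkbia exceeded that of Rela by 0.73 ± 0.29, between 0.70 and 0.79 over the 8 settings compared. It exceeded that of Tnfaip3 by 0.77 ± 0.29, between 0.71 and 1.096. Against Rela, the difference was 0.42 ± 0.29 for Nfkbiz, 0.35 ± 0.29 for Nfkbie, 0.21 ± 0.29 for Bcl3 and −0.039 ± 0.29 for Tnfaip3. Only the differences of Nfkbia were larger than 2 of these SEs. The median of the 5 inhibitors exceeded that of the 5 subunits by 0.34, between 0.31 and 0.35 over the same settings, which is a description of 10 single spots per array.

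The promoters of the members were set beside these values because NF-κB acts on several of them. RefSeq windows from 250 bases before to 50 bases after a transcript start (build GRCm38.p6) were at hand for 7 of the 10 genes. The others, Relb, Nfkb1 and Nfkbiz, were not analysed here. The windows were searched for the κB motif in its common degenerate form on both strands, with overlapping matches counted as 1 site. Of 32851 windows of the same length in the table, 8.46% held at least 1 site. Among the members, 6 of 7 genes and 8 of 10 windows did. The windows of 4 inhibitors and of Rela are printed with the matches in capitals and all else in lower case, in the direction of transcription. They lie at chr12:55492598-55492897 on the minus strand for Nfkbia, chr17:45555450-45555749 on the plus strand for Nfkbie, chr7:19822706-19823005 on the minus strand for Bcl3, chr10:19015361-19015660 on the minus strand for the first of 2 starts of Tnfaip3, and chr19:5637291-5637590 on the plus strand for Rela.
Nfkbia: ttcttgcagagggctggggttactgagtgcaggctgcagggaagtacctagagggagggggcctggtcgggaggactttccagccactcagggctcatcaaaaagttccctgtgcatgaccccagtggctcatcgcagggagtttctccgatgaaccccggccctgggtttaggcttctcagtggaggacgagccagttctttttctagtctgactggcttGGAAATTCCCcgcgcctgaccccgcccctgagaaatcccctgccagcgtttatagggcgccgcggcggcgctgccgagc
Nfkbie: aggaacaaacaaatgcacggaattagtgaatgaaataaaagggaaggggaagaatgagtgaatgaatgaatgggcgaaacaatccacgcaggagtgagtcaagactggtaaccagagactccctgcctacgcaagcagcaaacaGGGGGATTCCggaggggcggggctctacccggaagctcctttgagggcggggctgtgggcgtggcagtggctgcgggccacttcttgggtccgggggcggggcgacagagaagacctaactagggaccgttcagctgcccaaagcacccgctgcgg
Bcl3: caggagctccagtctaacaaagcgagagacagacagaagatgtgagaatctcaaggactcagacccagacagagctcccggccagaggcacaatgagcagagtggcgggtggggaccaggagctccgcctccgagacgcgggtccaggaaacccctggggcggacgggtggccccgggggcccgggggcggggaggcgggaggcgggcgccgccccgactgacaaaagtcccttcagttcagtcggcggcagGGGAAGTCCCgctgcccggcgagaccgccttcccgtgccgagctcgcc
Tnfaip3: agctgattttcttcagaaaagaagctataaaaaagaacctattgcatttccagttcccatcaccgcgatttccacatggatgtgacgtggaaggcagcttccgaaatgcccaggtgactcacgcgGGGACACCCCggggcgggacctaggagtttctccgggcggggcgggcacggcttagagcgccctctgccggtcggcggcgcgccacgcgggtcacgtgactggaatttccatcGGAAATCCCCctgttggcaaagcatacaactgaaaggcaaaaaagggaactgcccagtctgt
Rela: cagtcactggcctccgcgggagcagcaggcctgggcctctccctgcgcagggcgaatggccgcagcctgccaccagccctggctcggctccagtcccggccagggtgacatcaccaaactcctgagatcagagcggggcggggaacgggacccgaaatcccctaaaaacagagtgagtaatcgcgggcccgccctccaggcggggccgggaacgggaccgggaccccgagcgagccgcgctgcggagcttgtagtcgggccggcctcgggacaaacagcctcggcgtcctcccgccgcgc
The Nfkbia window held 1 site, GGAAATTCCC, beginning 29 bases before the start. The Nfkbie site, GGGGGATTCC, began 106 bases before the start, and the Bcl3 site, GGGAAGTCCC, lay just after it. The first Tnfaip3 window held 2 sites, GGGACACCCC at 125 bases and GGAAATCCCC at 12 bases before the start. The Rel window held 1 site of overlapping matches, the windows of the 3 starts of Nfkb2 held 2, 2 and 1, and the Rela window held none. The second and the third window of Nfkb2 overlap and share the site GGGACTTTCC, which is counted in each. A match is a stretch of letters and not a measured binding site. Whether the sites relate to the differences between the pools was not tested.

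**Figure D3:**
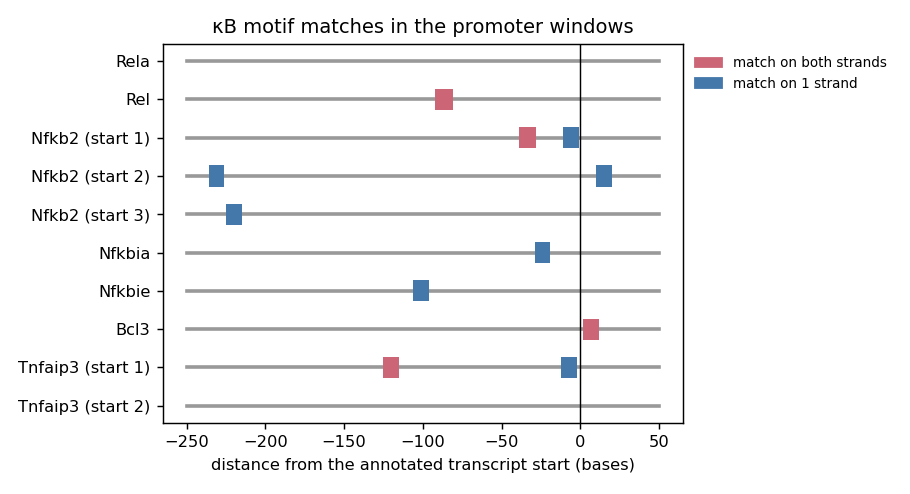
Position of κB motif matches (boxes) in the promoter windows of 7 members, in bases from the annotated transcript start (vertical line); windows of genes with several starts are numbered. Nfkbia has 1 site at 29 bases before the start, the first Tnfaip3 start has 2, and Rela has none.

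The remaining genes of the pathway were taken from lists of 38 upstream kinases and adaptors, 26 other inhibitors and 43 target genes, with Traf1 and Birc3 on the first and last of these and Sharpin on the first and second. These lists were chosen with earlier results of these data known. Of the 38 upstream genes, 28 were higher and 10 lower in the HSD pool, beside 54.2% higher among all genes. In this list 8 passed 1.5-fold and were higher and 0 passed it and were lower, beside 9.86% and 10.3% of all genes. The median log2 fold change was 0.24, beside 0.045 for all genes. The kinases that release the dimers differed little. Chuk, the gene of IKKα, had a log2 fold change of −0.0059 ± 0.20, Ikbkb, that of IKKβ, 0.13 ± 0.20, and Ikbkg, that of the scaffold NEMO, 0.18 ± 0.20, with 0.20 for its other probe. Map3k14, the gene of the NIK kinase of the non-canonical pathway, read 613.5 units in the NSD pool and 428.8 units in the HSD pool. This was a log2 fold change of −0.40, with −0.12 for its other, dimmer probe.

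Among the upstream genes with large differences towards the HSD pool were Myd88, Ikbke and Tank. Myd88, the adaptor of most Toll-like receptors and of the interleukin-1 receptor, was measured by 9 spots and read 2557 units in the NSD pool and 4937 units in the HSD pool, a log2 fold change of 1.06. Ikbke, an IκB kinase-related kinase, had a log2 fold change of 0.93. Tank, an adaptor of that kinase, had a log2 fold change of 0.89, with 0.98 for its other probe. In the other direction, Azi2 had a log2 fold change of −0.46, with −0.16 for its other, dimmer probe. Rbck1, a subunit of the linear ubiquitin ligase, had one of −0.44. Irak4, a kinase downstream of MYD88, had one of −0.25, with 0.091 for its other probe. All 4 genes that were lowest, Map3k14 among them, differed by less than 1.5-fold.

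Of the 26 other inhibitors, 21 were higher and 5 lower in the HSD pool. A difference of 1.5-fold was reached by 8 of the higher ones and 0 of the lower ones, beside 9.86% and 10.3% of all genes. The median log2 fold change was 0.38. Nfkbib, which encodes IκBβ, read 907.3 units in the NSD pool and 1322 units in the HSD pool, a log2 fold change of 0.66 ± 0.20. Its other probes had 0.18 and 0.66, and over the other settings the brightest had 0.58 to 0.66, the lowest just under 1.5-fold. Nfkbid, which encodes the nuclear inhibitor IκBNS, read 3209 and 3867 units, a log2 fold change of 0.38 ± 0.20. The difference of Nfkbid was under 1.5-fold and within 2 SEs of the software error.

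Irak3 encodes IRAK-M, an inhibitor of MYD88 signalling in monocytes and macrophages, and read 2074 units in the NSD pool and 4806 units in the HSD pool, a log2 fold change of 1.33. Cyld, a deubiquitinase, was dim, with 21.2 and 49.0 units and a log2 fold change of 1.32, or 0.50 and under 1.5-fold with normexp. Itch, a ubiquitin ligase that works with A20, read 1588 and 3004 units (log2 fold change 1.03). Rnf11, which also works with A20, had a log2 fold change of 0.69, with 0.65 for its other probe. The lowest values were −0.43 for Nkiras2, −0.33 for Ptpn22, −0.32 for Nkiras1 and −0.11 for Otulin, none of them past 1.5-fold, and the other probe of Nkiras2 had 0.090.

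**Figure D4:**
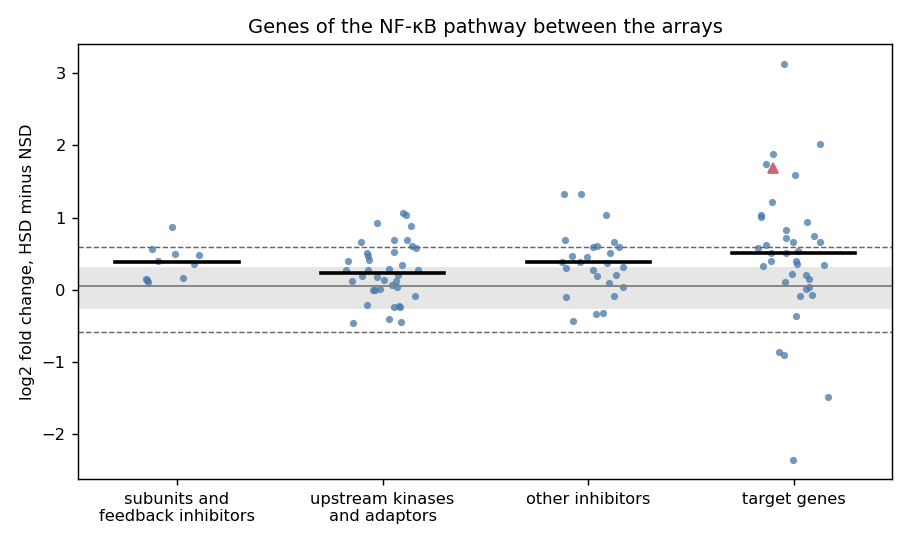
Log2 fold change (HSD minus NSD) of each usable gene of the 10 members and of 3 lists of the pathway; points are single genes, the triangle is a gene known only by a bound, bars are medians (0.38, 0.24, 0.38 and 0.51), dashed lines mark 1.5-fold, and the grey band and line give the quartiles and median of all genes. The members spread less than the target genes, which reach past 1.5-fold in both directions.

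The target genes spread most. Of 43 listed, 38 had a usable probe, and of these 31 were higher and 7 lower. Past 1.5-fold were 16 of the higher ones and 4 of the lower ones, beside 9.86% and 10.3% of all genes. The median log2 fold change was 0.51. The largest values towards the HSD pool were those of Nos2 (3.13), Cxcl2 (2.02), Cxcl1 (1.88) and Cxcl3 (1.75), which encode inducible nitric oxide synthase and neutrophil-attracting chemokines. With normexp these were 1.60, 1.66, 1.03 and 1.21, so that Cxcl2 was then the largest of them. Nos2 and Cxcl1 were dim in the NSD pool, with 22.8 and 30.9 units, beside 184.5 and 105.0 units in the HSD pool. The 4 genes past 1.5-fold in the other direction were Ccl2 (−2.36), Ccl5 (−1.49), Il1a (−0.91) and Cxcl10 (−0.86), of which Ccl2, Ccl5 and Cxcl10 encode attractants of monocytes and T cells. Il1a was dim, and with normexp its value was −0.18, under 1.5-fold. Csf3 was dim, with 1.30 units in the NSD pool, where it was not well above background, and 13.7 units in the HSD pool. Its bound was 3.21-fold higher in the HSD pool. The software SE of its log2 fold change without the bound was 1.17, so the bound is not a firm minimum. Il12b and Ccl3, which had no named or unflagged probe, were not analysed here. Many of these genes also answer to other factors, and the arrays do not tell through which one a transcript differed.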

How the data were processed

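RNA of tumour M-MDSCs, pooled over the mice of a diet, was measured on 1-colour Agilent whole-genome mouse arrays, 1 array for each of the 2 diets. The authors deposited the spot intensities of each array as extracted with Agilent Feature Extraction 11.0.1.1, with background subtraction and without normalization between arrays. A second table that the authors deposited holds log2 values normalized between the arrays, whose sorted columns differ by at most 0.052. Per the study's methods normalization was done in GeneSpring GX, its algorithm is not given in the sources used here, and the table served as an alternative.

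Control spots and spots flagged as outliers were left out, the log2 of each signal was averaged over the spots of a probe, and every array was shifted by its own 75th percentile. Transcript identifiers were matched without versions to RefSeq (GRCm38.p6), which named 27223 of 39413 probes (69.1%), and the brightest probe stood for a gene. The array design was made on an older build, so no coordinates of the array design are given. Those of the promoter windows are from RefSeq (GRCm38.p6). A gene was usable when well above background on at least 1 array (at least 50% of its spots). Where the other array was dim, only a bound was given, measured from the dim signal itself or from the lowest signal well above background, whichever was higher (4.61 units for the NSD, 4.39 units for the HSD). The software called 71.9% and 72.4% of the probes well above background, and no spot was saturated. The number of arrays limits the precision.

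The members and lists were chosen with earlier results of these data known. Named genes are the members, Chuk, Ikbkb, Ikbkg, Map3k14, Nfkbib, Nfkbid and, in each list, the 4 highest and the 4 lowest log2 fold changes among genes measured on both arrays; Csf3 was named after its value was seen, and 1 gene that this rule names is not reported here. Marker lists of dendritic cells, 4T1 carcinoma cells, fibroblasts and endothelial cells were also read, with summed scaled signals of 1.05, 0.966, 0.968 and 1.10 times those of the NSD pool, and that of neutrophils was 1.05 and of monocytes and M-MDSCs 1.16 times. Counting of genes past 1.5-fold was checked with simulated arrays. Software was limma 3.58.1 in R 4.3.3, and numpy 2.4.6, pandas 2.3.3 and matplotlib 3.10.9 in Python 3.11.15.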

Additional observations from a re-analysis of the deposited data

How the results depend on the processing

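No paired analysis was possible because each diet has 1 array, and no array could be left out. The call of Nfkbia at 1.5-fold held in all 8 alternatives for single genes. At a 2-fold threshold no member gene or probe was called (0 higher, 0 lower), with no share of all genes at 2-fold given here to set beside it. Values that moved by more than the spot-to-spot SD of 0.092 follow, and the cause was not tested. With normexp (median spot signals, offset of 50) the log2 fold change was 0.24 for Rel and −0.16 for Tnfaip3. The median was then 0.27 for the members and 0.36 for the target genes. In that setting 4 other inhibitors were at least 1.5-fold higher, beside 3.85% of all genes. Quantile normalization gave 0.040 for Rela, 0.78 for Nfkbia, 0.26 for Bcl3 and a median of 0.28 for the other inhibitors. Cyclic loess gave 0.039 for Rela, 0.74 for Nfkbia, 0.24 for Bcl3 and again a median of 0.28 for the other inhibitors, with 5 of them at least 1.5-fold higher. Scaling on detected probes also left 5. The deposited values gave 0.039 for Rela and 0.78 for Nfkbia, and the median over its probes gave 0.31 for Relb. At 2-fold, 2 upstream genes, 3 other inhibitors and 9 target genes were higher and 2 target genes lower. These counts too lack a share of all genes at 2-fold, so they are not read against the arrays as a whole. The other 204 values stayed within that SD or within 1.5 times the count. Scaling moved the share of higher genes among all those past 1.5-fold from 48.9% to between 38.5% (cyclic loess) and 49.8% (median). The dimmest member, Rel, was 31.3 units against a local background of 17 units, which limits its value.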
